A study of Mus musculus with 9 samples.

Results

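Serine proteases and their inhibitors were followed in the testis of 10-day-old mice, by collecting every gene whose first name in the deposited table begins with Prss, Tmprss, Spink, Spint or Serpin. This name rule found 133 genes among the 23113 in the table. Of these, 25 had a mean of at least 1 FPKM, a count of fragments relative to the length of the transcript and the size of the library, over the 2 columns and are the ones counted below, and 108 lay under that level. The 133 genes comprise 38 Prss and 17 Tmprss proteases, 13 Spink and 5 Spint inhibitors, and 60 serpins.

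Serine proteases of the trypsin fold cut proteins with a serine at the active site. The Prss genes encode mostly secreted or lipid-anchored enzymes, and the Tmprss genes encode enzymes held in the plasma membrane. Kazal-type (Spink) and Kunitz-type (Spint) inhibitors block such enzymes by occupying the active site, whereas most serpins act as suicide traps whose exposed loop is cut and then locks the protease. In the testis, proteases and inhibitors of these families are known from germ cell release, remodelling of the tubule wall, sperm maturation and fertilization, and many Prss genes are expressed there and hardly elsewhere.

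The series compares C57BL/6 testes at postnatal day 10 labelled Lin28a knockout (3 RNA-seq libraries) with testes labelled wild type (3 RNA-seq libraries). LIN28A is an RNA-binding protein of undifferentiated spermatogonia that restrains let-7 microRNA maturation. The names of the knockout libraries carry the letters cKO, and neither the floxed allele nor the driver of deletion is given in the sources used here. A further 3 samples of LIN28A CLIP, which recovers RNA bound to the protein, were not analysed here. Each library name carries its own number, but no label says whether these are separate animals, so the authors' p-values may measure technical spread. The FPKM values come as 1 pooled figure for each group, in a column labelled case and a column labelled control, called the case column and the control column below, and therefore stand here without an SD or n. Lin28a itself was at 23.4 FPKM in the case column against 8.82 FPKM in the control column, 2.66-fold higher where a knockout should be lower (q = 0.00191 in the authors' deposited table). Directions are accordingly given between the columns by their names, and not between genotypes.

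Testis markers were present in both columns. All 15 Sertoli cell markers and all 10 general germ cell markers reached a mean of 1 FPKM, with summed levels of 5683 and 5825 FPKM and of 610 and 743 FPKM in the case and control columns. Only 1 of 10 liver markers and 1 of 10 acinar pancreas markers measured did so. The 24 measured markers of meiotic prophase were all lower in the case column, with a summed level of 447 against 650 FPKM and a median difference of log2(FPKM + 1) of -0.58. Peritubular and stromal markers were higher there in 13 of 13 cases, with 1113 against 967 FPKM in sum. Leydig cell markers were higher there in 9 of 10, with 463 against 382 FPKM. Over all genes at a mean of 1 FPKM or more, 60.8% were higher in the case column. In whole testis RNA, fewer cells of a type and less RNA per cell cannot be told apart.

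The stretches of 250 bases before the start of 5 genes are shown because they set expressed members beside neighbours of the same family with other levels. Prss50 and Prss46 lie 1.45 kb apart on chromosome 9, Serpina5 and Serpina3a are neighbours on chromosome 12, and Prss35 had the highest level of all 133 genes. The sequences are RefSeq's on GRCm38.p6, 5′ to 3′ on the strand of the gene, and in all 5 the annotated start equals the start of the deposited row. Capitals mark matches, on either strand, to 5 short motifs. The TATA box was searched as TATAAA. A GC box, as bound by SP1 factors, was searched as GGGCGG. The core bound by MYB proteins was taken as CAACNG. The core of the cAMP response element (CRE core below) was taken as TGACG. A site of the steroidogenic factor SF1 was taken as CAAGGTCA.
Prss50 (chr9:110857717-110857966, plus strand): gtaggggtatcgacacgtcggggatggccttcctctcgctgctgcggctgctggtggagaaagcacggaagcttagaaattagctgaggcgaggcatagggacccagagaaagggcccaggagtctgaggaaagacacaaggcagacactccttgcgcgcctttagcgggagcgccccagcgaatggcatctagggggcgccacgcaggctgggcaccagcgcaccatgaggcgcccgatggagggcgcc
Prss46 (chr9:110844256-110844505, plus strand): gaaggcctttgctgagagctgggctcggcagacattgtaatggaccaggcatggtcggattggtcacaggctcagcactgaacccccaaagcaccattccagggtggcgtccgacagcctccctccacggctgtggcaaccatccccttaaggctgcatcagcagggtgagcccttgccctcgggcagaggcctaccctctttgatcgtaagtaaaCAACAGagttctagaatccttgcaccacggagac
Serpina5 (chr12:104100863-104101112, plus strand): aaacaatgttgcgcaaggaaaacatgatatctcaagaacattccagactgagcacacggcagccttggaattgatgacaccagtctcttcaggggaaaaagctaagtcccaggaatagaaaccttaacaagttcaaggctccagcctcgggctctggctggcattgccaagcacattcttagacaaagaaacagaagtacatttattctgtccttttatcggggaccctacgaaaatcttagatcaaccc
Serpina3a (chr12:104112474-104112723, plus strand): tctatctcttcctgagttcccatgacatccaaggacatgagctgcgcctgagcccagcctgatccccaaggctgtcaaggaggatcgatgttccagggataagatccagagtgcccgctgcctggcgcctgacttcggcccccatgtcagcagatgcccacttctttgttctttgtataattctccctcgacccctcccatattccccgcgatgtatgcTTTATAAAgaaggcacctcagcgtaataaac
Prss35 (chr9:86743383-86743632, plus strand): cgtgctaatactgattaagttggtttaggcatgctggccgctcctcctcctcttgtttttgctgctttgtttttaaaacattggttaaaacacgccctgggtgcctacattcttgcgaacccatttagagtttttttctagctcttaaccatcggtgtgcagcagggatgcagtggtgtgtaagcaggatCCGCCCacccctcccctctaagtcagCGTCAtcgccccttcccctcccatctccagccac
The window of Prss50 held none of these motifs, was 64.0% G or C and contained 18 CpG pairs. That of Prss46 was 58.0% G or C with 8 CpG pairs and had a MYB core starting 34 bases before the start. Serpina5 had no match in a window of 44.8% G or C, and Serpina3a had a TATA box 29 bases before the start that also reads as one on the other strand. In Prss35 a GC box began 60 bases and a CRE core 34 bases before the start, both on the opposite strand. A match here is a match of letters and was not tied to binding.

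Most of the family was close to silent at this age. Of the 133 genes, 48 were listed at 0 in both columns, 34 lay above 0 and below 0.1 FPKM, 26 lay from 0.1 to below 1, 15 from 1 to below 10, 6 from 10 to below 100, and 4 at 100 FPKM or more. The share at a mean of 1 FPKM or more was 18.8% of the family and 54.5% of all genes in the table. Serpins (14 of 60) and Spint inhibitors (4 of 5) reached that level more often than proteases (5 of 55) and Spink inhibitors (2 of 13). Near the threshold, Spint3 lay inside it at a mean of 1.66 FPKM, and those just outside were Serpina3n at 0.882 and Prss41 at 0.858 FPKM.

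A few genes carried most of the signal. Prss35, Serpinb6a, Serpinh1 and Spint2 together made up 65.3% of the family's 943 FPKM in the case column and 62.7% of its 889 FPKM in the control column. Prss35 ranked above 99.2% of all genes in the table, and Serpinb6a above 99.0%. The plot of levels by gene shows that inhibitors, and above all serpins, fill the upper part of the range, with Prss35 and Prss50 the only proteases above 10 FPKM.

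**Figure D1:**
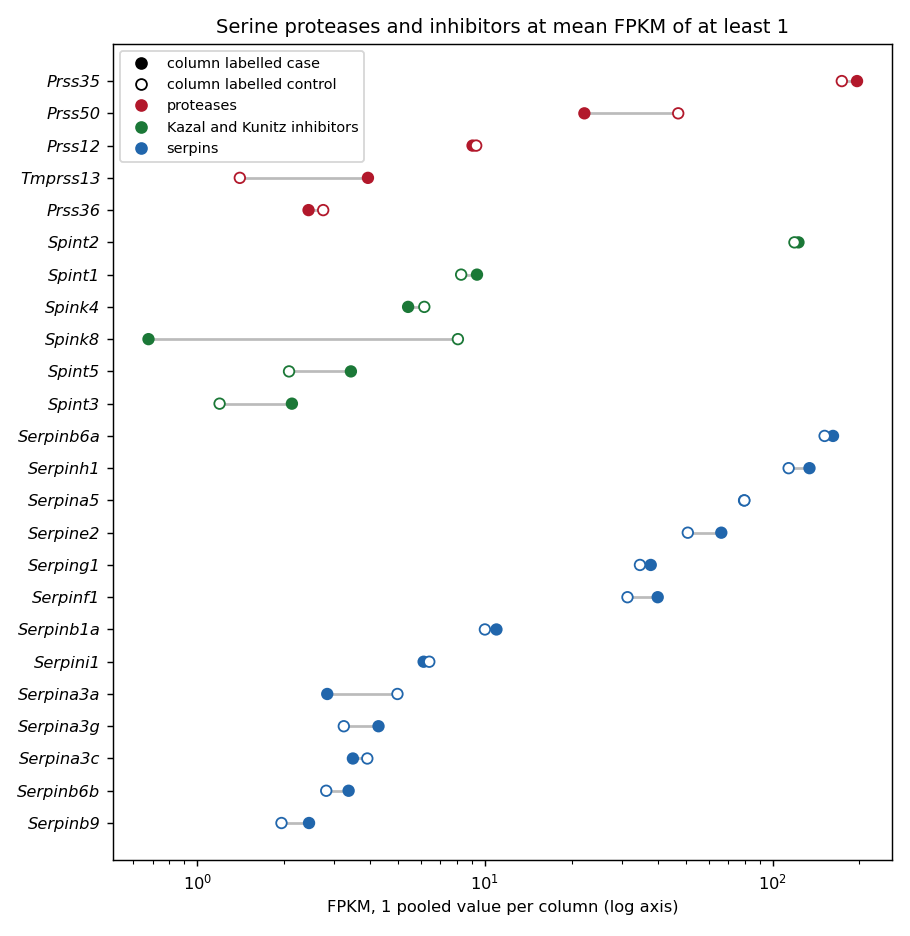
FPKM of 24 of the 25 members with a mean of at least 1, on a log axis; filled points are the case column and open points the control column, each 1 pooled value, and colours give the family. Spink8 (0.677 and 8.05 FPKM), Prss50 (22.2 and 47.0), Tmprss13 (3.92 and 1.41), Spint3 (2.13 and 1.20) and Serpina3a (2.83 and 4.96) have the widest gaps; the points of Serpina5 coincide.

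In the authors' deposited table, 37 of the 151 rows of the family were tested, 113 had the status NOTEST and 1 the status LOWDATA. None of the 37 rows passed a q-value of 0.05 in the authors' deposited table, where 0.0514% of all 13629 tested rows did. At an unadjusted p under 0.05, there were 3 rows, against 1.28% of all tested rows. Of these, 2 were lower in the case column (0.631% of all tested rows) and 1 was higher (0.646%). The median p of the family's tested rows was 0.501, and that of all tested rows 0.731, in the authors' deposited table.

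By size, 3 of the 25 genes were at least 1.5-fold lower on the log2(FPKM + 1) scale in the case column, namely Spink8, Prss50 and Serpina3a, where 0.786% of all 12593 genes of that level were. A single gene, Tmprss13, was at least 1.5-fold higher, against 0.476% of all genes. Folds vary more between genes of low level: among the 15 members from 1 to below 10 FPKM, 2 were lower by that size, against 1.3% of all genes in that range, and 1 was higher, against 0.757%. Counted without regard to size, 15 of the 25 were higher in the case column and 10 lower, and the background share of higher genes was 60.8%. The median difference of the 25 was 0.12, that of all genes 0.03.

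**Figure D2:**
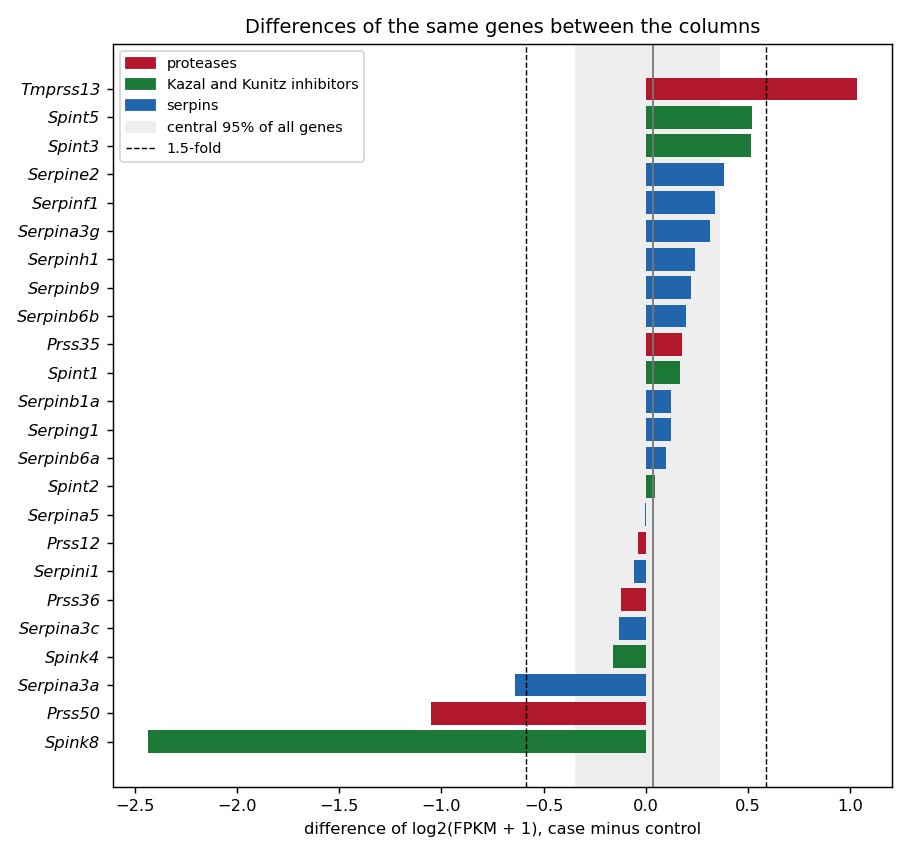
Case-minus-control difference of log2(FPKM + 1) for the same 24 genes; the grey band holds the central 95% of all genes with a mean of at least 1 FPKM (-0.34 to 0.36), the grey line is their median and dashed lines mark 1.5-fold. Spink8 (-2.43), Prss50 (-1.05), Serpina3a (-0.64) and Tmprss13 (1.03) pass the dashed lines.

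Among the proteases, Prss50 and Tmprss13 were past 1.5-fold, in opposite directions. Prss50 (NM_146227; mm10 chromosome 9, 110857967 to 110864628) encodes a protease-like protein of the testis with a threonine where trypsin has its catalytic serine. It was at 22.2 FPKM in the case column against 47.0 FPKM in the control column. The case column was thus 2.12-fold lower, and the authors' deposited table gives p = 2.14e-04 with q = 0.292. Meiotic prophase markers, which were 24 of 24 lower in the same column, moved with it, and their part in the difference was not tested.

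A set of 18 Prss genes was counted as testis proteases from general knowledge of the family (Prss21, Prss37, Prss40 to Prss46, Prss48, Prss50 to Prss55, Prss57 and Prss58). The set is rough, since Prss57 is known from neutrophils and the testicular Prss39 lies outside it. In it, Prss50 was the only one at a mean of 1 FPKM. Another 10 were detected below that level, 8 of them lower and 2 higher in the case column, where 33 of all 60 members and 46.1% of all genes detected below 1 FPKM were lower, and 7 were listed at 0 in both columns. Prss41, a lipid-anchored protease of the testis, was the highest of these at 0.410 FPKM in the case column against 1.31 FPKM in the control column (p = 0.0810, taken from the authors' deposited table). At under 1 FPKM these differences amount to fractions of a unit, and the depth behind them is unknown. Prss21 and Prss57 were detected in the control column only, which fixes their direction.

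Prss35 (mm10 chromosome 9, 86743633 to 86757506) is a secreted trypsin-like protein that lacks the usual catalytic serine. It was at 196 FPKM in the case column against 174 FPKM in the control column, a difference of 0.17 with p = 0.501 in the authors' deposited table. Prss12, or neurotrypsin, which cleaves the matrix protein agrin, was at 9.06 and 9.32 FPKM. Prss36, which carries several protease domains in 1 chain, was at 2.44 and 2.74 FPKM. Neither gap exceeded 0.13 on the log2(FPKM + 1) scale, and the other 17 Prss genes outside the testis set lay below 1 FPKM.

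The membrane proteases were represented by Tmprss13 alone. Tmprss13 (mm10 chromosome 9, 45318266 to 45347580), known from the epidermis, where it takes part in barrier formation, was at 3.92 FPKM in the case column against 1.41 FPKM in the control column. It was 2.79-fold higher in the former, with p = 0.00202 in the authors' deposited table, where q is above 0.99. The other 16 Tmprss genes were below 1 FPKM, 8 of them at 0 in both columns, with Tmprss5 at 0.765 FPKM on average the highest of them.

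Both Kazal inhibitors at a mean of 1 FPKM were lower in the case column, and all 4 Kunitz inhibitors were higher, none of them past q. Of all genes at that level, 60.8% were higher. Spink8 (NM_183136; mm10 chromosome 9, 109816627 to 109826627), a small secreted Kazal-type inhibitor, was at 0.677 FPKM in the case column against 8.05 FPKM in the control column. That is 11.9-fold lower in the case column, and the authors' deposited table gives p = 4.88e-04 with q = 0.492. Spink8 reached a mean of 1 FPKM only through the control column, so its place among the counted genes goes with its direction. Spink4, an inhibitor known from intestinal goblet cells, stood at 5.41 and 6.16 FPKM (p = 0.808, taken from the authors' deposited table). The 5 other Spink genes detected at all, each below 1 FPKM and untested, had the lower value in the case column. Of these, 4 were at 0 there and counted as detected only through the control column, which fixes their direction. Among them, Spink10 and Spink13 have the same deposited locus, so their values may not be separate. Among all genes detected below 1 FPKM, 46.1% were lower. Another 6 Spink genes were listed at 0 in both columns.

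Markers of the epididymis, a tissue rich in secreted inhibitors, are given beside Spink8. Of 16 epididymis and duct markers, 6 were listed at 0 in both columns, among them the lipocalins Lcn5, Lcn8 and Lcn9, and 5 reached a mean of 1 FPKM. Their summed level was 59.3 FPKM in the case column against 57.8 FPKM in the control column, of which Cd9, a gene expressed in many tissues, made up 45.9 and 45.5 FPKM. Of those 5, 3 were higher and 2 lower. Crisp1, secreted by the epididymal duct, had 0.261 against 2.27 FPKM (p = 0.00256, taken from the authors' deposited table), but Cst11 had 3.0 against 1.42 and Defb42 had 6.07 against 4.52 FPKM. The part of these markers in the Spink8 difference was not tested.

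On the log2(FPKM + 1) scale none of the 4 Spint genes at a mean of 1 FPKM was past 1.5-fold, although the plain ratios of Spint3 (1.78) and Spint5 (1.64) were. Spint2, which inhibits hepatocyte growth factor activator and matriptase at the cell surface, was the highest at 123 and 119 FPKM. Its 2 transcript rows were at 110 and 106 FPKM and at 13.3 and 12.9 FPKM. Spint1, its close relative, was at 9.38 and 8.27 FPKM. Spint5 and Spint3, small Kunitz inhibitors, were at 3.42 and 2.09 FPKM and at 2.13 and 1.20 FPKM, with p = 0.414 and p = 0.348 in the authors' deposited table.

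Among serpins, those of clades C to I reached a mean of 1 FPKM at 6 of 11, clade A at 4 of 22 and clade B at 4 of 27. Serpinh1 (mm10 chromosome 7, 99345375 to 99353239), a collagen chaperone of the endoplasmic reticulum that does not inhibit proteases, was at 134 and 114 FPKM (p = 0.365 for its main row, taken from the authors' deposited table). Each of its 3 transcript rows was higher in the case column, the main one at 120 against 103 FPKM. Serpine2, or protease nexin-1, which blocks thrombin and urokinase, was at 66.3 and 50.7 FPKM (p = 0.120, taken from the authors' deposited table). Serpinf1, the antiangiogenic factor PEDF, which has no inhibitory activity, was at 39.8 and 31.3 FPKM (p = 0.214, taken from the authors' deposited table).

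These 3 genes had differences of 0.24, 0.38 and 0.34, and the 13 peritubular and stromal markers, higher without exception, had a median of 0.22. Such a median was not particular to them. Leydig cell markers had one of 0.27, with 9 of 10 higher, and endothelial markers one of 0.21, with 8 of 10 higher. Of all genes at a mean of 1 FPKM or more, 60.8% were higher. Col1a1, a collagen that Serpinh1 helps to fold, was at 69.9 and 53.9 FPKM. The part of stromal, Leydig cell or endothelial markers in the serpin differences was not tested. Serping1, the complement C1 inhibitor, was at 37.7 and 34.6 FPKM. Serpini1, or neuroserpin, was at 6.12 and 6.40 FPKM, nearly level between the columns.

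In clade A, Serpina5 dominated. Serpina5 (mm10 chromosome 12, 104101113 to 104106137), the protein C inhibitor, which male mice need for fertility, was at 79.5 FPKM in the case column against 79.7 FPKM in the control column. Its p of 0.989 in the authors' deposited table went with a difference of under 0.01 on the log2 scale. Serpina3a (mm10 chromosome 12, 104112724 to 104121896), one of the many mouse relatives of antichymotrypsin, was at 2.83 and 4.96 FPKM, 1.75-fold lower in the case column (p = 0.0967, taken from the authors' deposited table). Serpina3g, an inhibitor known from leukocytes, was higher in the case column at 4.27 and 3.23 FPKM, and Serpina3c was at 3.48 and 3.90 FPKM. Serpina3 genes are close copies of one another and the rows of Serpina3g and Serpina3f overlap, so their reads may be split or joined and their levels are uncertain.

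All 4 described clade B serpins, which act inside cells, were slightly higher in the case column, by 0.10 to 0.22. Of all genes at a mean of 1 FPKM or more, 60.8% were higher there. Serpinb6a (mm10 chromosome 13, 33917918 to 34002794), a cytoplasmic inhibitor needed for hearing, was at 162 and 152 FPKM over its 4 transcript rows. Its main row was at 146 and 134 FPKM, whereas a minor row stood at 5.81 and 8.53 FPKM (p = 0.303, taken from the authors' deposited table). Its locus in the table also overlaps Nqo2, at 8.79 and 9.11 FPKM, and strand is not stated. Serpinb1a, an inhibitor of neutrophil elastase, was at 11.0 and 10.0 FPKM, Serpinb6b at 3.36 and 2.81 FPKM, and Serpinb9, an inhibitor of granzyme B, at 2.45 and 1.96 FPKM.

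Most members lie in chromosomal clusters, and expressed members stood beside silent ones. In all, 96 of the 133 genes lay in 13 clusters of at least 3 members with gaps of at most 1 Mb, and 8 of these clusters had no member at a mean of 1 FPKM. The cluster of 21 clade A serpins on chromosome 12 (103616675 to 104414329) had 4 members at that level and a median of 0.0680 FPKM, although Serpina5 within it reached 79.6 FPKM on average. The 15 clade B genes on chromosome 13 (32842092 to 34002794) also had 4 at that level, with Serpinb6a at the end of the cluster at 157 FPKM and 7 genes listed at 0. Their 12 relatives on chromosome 1 had none, the highest being Serpinb2 at 0.465 FPKM.

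On chromosome 9, Spink8 and 6 Prss genes lie between 109816627 and 110864628. Spink8 stands apart from the Prss genes: it ends at 109826627 and the next member, Prss42, begins at 110798185, a gap just inside the limit of 1 Mb. Prss50 was at 34.6 FPKM on average there, while its neighbours Prss42, Prss44, Prss43, Prss45 and Prss46 lay between 0.110 and 0.744 FPKM. Tmie, a hair cell gene 1.42 kb beyond Prss50 and outside the family, was at 7.53 and 6.65 FPKM, higher in the case column where Prss50 was lower. Spint3 and Spint5 on chromosome 2 flank Spint4, which was at 0.136 FPKM. Silent clusters included the 7 Tmprss11 genes of chromosome 5, the 5 genes from Prss37 to the pancreatic trypsinogen Prss2 on chromosome 6, and Prss55, Prss51 and Prss52 on chromosome 14, all listed at 0 in both columns.

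**Figure D3:**
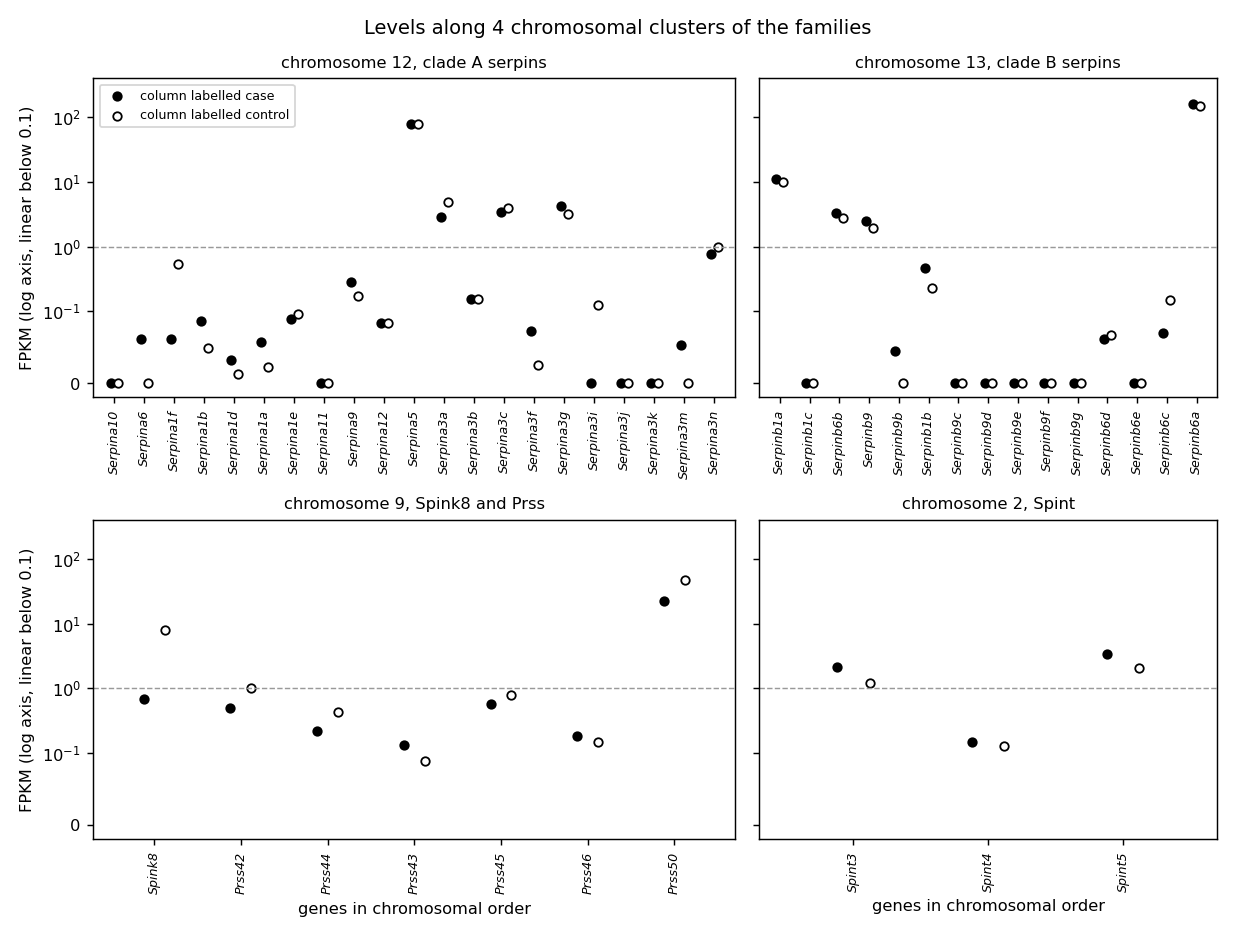
FPKM of each gene in 4 chromosomal clusters, in chromosomal order; filled points are the case column and open points the control column, the axis is logarithmic above 0.1 and linear below, and the dashed line marks 1 FPKM. Serpina5, Serpinb6a and Prss50 stand out from neighbours that lie mostly below the line. Genes are evenly spaced, so distances are not to scale.

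The sequence before the start was richer in G and C and in CpG pairs in expressed than in silent members, as over the whole table, and the expressed members held fewer CpG pairs than all expressed genes. Of the 133 genes, 96 had a promoter entry in the RefSeq table, and the 250 bases before each start were read. The median window of the 19 expressed ones was 53.2% G or C with 8 CpG pairs, and over all 9395 expressed genes it was 60.4% with 16. Among the 77 members below 1 FPKM it was 49.2% with 2 CpG pairs, and among all 6885 genes of that level 48.4% with 3. A GC box was found in 7 of the 19 (36.8%) and in 62.2% of all expressed genes, a TATA box in 3 of the 19 (15.8%) and in 5.79%, a MYB core in 4 of the 19 (21.1%) and in 27.3%, a CRE core in 1 of the 19 (5.26%) and in 27.8%, and an SF1 site in 0 of the 19 and in 0.883%. Among the 77 members below 1 FPKM, the CRE core was in 19.5%, more than among expressed members, whereas over all genes of that level it was in 12.1%, fewer than among all expressed genes. The GC box was in 10.4% of those 77 and in 20.0% of all genes of that level. The TATA box was in 22.1% and 19.9%, and the MYB core in 33.8% and 28.9%. These shares are descriptions over few windows and were not tested.

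Other serine peptidases and inhibitors were taken from 5 lists. Their counts of higher genes stand beside a share of 60.8% higher in the case column over all genes at a mean of 1 FPKM. Extracellular serine proteases outside the name rule had 10 of 39 measured genes at a mean of 1 FPKM, with a median difference of 0.12 and 6 of 10 higher. Masp1, which starts the lectin pathway of complement, was at 5.19 and 3.43 FPKM, Htra3, a secreted protease that binds growth factors, at 45.0 and 38.8, and Cfi, complement factor I, at 1.43 and 2.07. Proprotein convertases had 4 of 5 higher and a median of 0.10, with Pcsk6 at 11.4 and 8.48, Pcsk5 at 6.22 and 4.78, and Mbtps1, which cleaves sterol regulatory proteins in the Golgi, at 88.4 and 84.0 FPKM.

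Receptors and cofactors of serine proteases had 8 of 9 higher, beside the same 60.8% of all genes, and a median of 0.13. F2r, the thrombin receptor, was at 10.1 and 7.56 FPKM, thrombomodulin (Thbd) at 27.2 and 24.1, and Ptk7, a surface protein that membrane proteases can cleave, at 28.3 and 25.8. The list of protease inhibitors outside the rule had 14 of 22 higher and a median of 0.03. It also counts Smoc1, Smoc2, Sparc, Fst, Fstl1 and Kazald1, so these figures are not those of protease inhibitors alone. Smoc1, a matrix protein, was at 20.2 and 16.3 and Fstl1, a secreted protein with a Kazal-like domain, at 67.4 and 57.8 FPKM. Itih5, of the inter-alpha-trypsin inhibitors, was at 24.0 and 20.7 FPKM. Serine peptidases of other folds had 11 of 23 higher and a median of -0.01, with Rhbdf1, an inactive rhomboid relative, at 6.46 and 5.32 FPKM. Immp2l, of the mitochondrial inner membrane, was at 2.03 and 2.79, and Dpp9, a cytosolic dipeptidyl peptidase, at 7.38 and 6.41 FPKM. No gene of these 5 lists at a mean of 1 FPKM had p under 0.05 in its highest row in the authors' deposited table, and 1 gene, Corin of the extracellular list, was past 1.5-fold, at 1.22 and 2.44 FPKM, where both of its rows have the status FAIL.

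**Figure D4:**
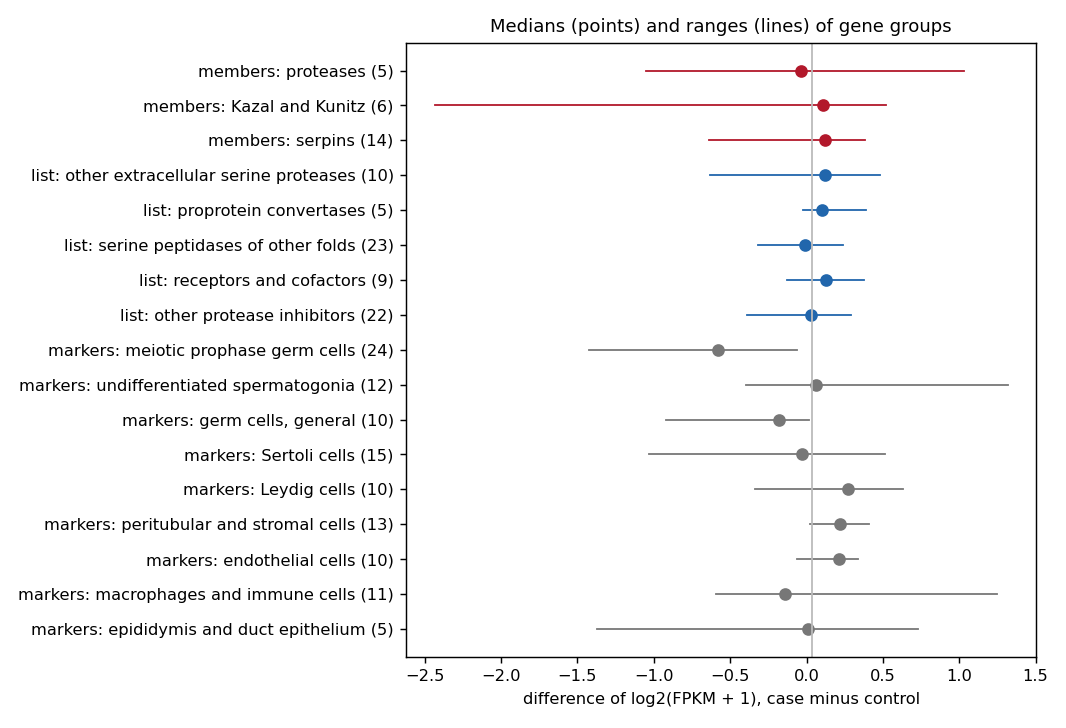
Median (points) and range (lines) of the case-minus-control difference of log2(FPKM + 1) for the 3 families of members (red), the 5 related lists (blue) and marker lists with at least 5 genes at a mean of 1 FPKM (grey); numbers in brackets count those genes and the vertical line is the median of all genes. The families and related lists have medians between -0.04 and 0.13, whereas the meiotic prophase markers have a median of -0.58.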

How the data were processed

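RNA-seq of testes labelled Lin28a knockout (3 libraries) and wild type (3 libraries) was analysed from 1 table. TopHat2 2.0.9 and mm10 are named as aligner and build in the submitters' processing notes. Which program computed FPKM is not given in the sources used. FPKM was deposited by the authors in 2 pooled columns. The authors also deposited a p-value and a q-value for each row, and a log2 ratio that is control over case. Depth per library is unknown, and no interval is given.

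Rows sharing a first gene name were summed (29661 rows, 23113 genes; names missing there were filled from the RefSeq table, GRCm38.p6, which held 98.0% of the rows). The difference between columns was taken on log2(FPKM + 1) with Python 3.11.15, which understates changes at low FPKM, and a change counted at 1.5-fold on that scale. Calls are the authors' own, at q under 0.05. The limma fit foreseen if libraries had values of their own could not be run, and protein features were not analysed here. Summing and fold counts were tested on simulated data, and the adjustment was recomputed from the deposited p-values of the tested rows. Deposited starts were raised by 1.

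Named are the members at a mean of 1 FPKM, except 1 that enters the counts and is not reported here, members above 1 FPKM in 1 column, and from each related list the 3 genes of smallest p. Corin, the Spint and Prss neighbours in clusters, Serpinb2, Tmie, Nqo2, Tmprss5 and the marker genes given by name lie outside this rule and were picked with their values in view, as were the motifs. Members and lists were chosen with earlier results of these data known. Alternatives varied the pseudocount, filter, rows, scaling and thresholds.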

Additional observations from a re-analysis of the deposited data

How the results depend on the processing

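The 4 genes past 1.5-fold kept their direction under every alternative run for them. Prss50 ranged from -1.09 to -0.94, Spink8 from -3.39 to -1.20, Serpina3a from -0.79 to -0.35 and Tmprss13 from 0.48 to 1.42. Only the changes of scaling could have turned a direction. Each of these genes has 1 row, so filters and row choices leave its value as it is, and a pseudocount keeps the sign. Of 214 differences of single genes, 201 moved by less than 0.1 on the log2 scale, and the other 13 all came with another pseudocount. Many of the 201 could not move, because a filter does not alter the value of a gene that it keeps. The count of 0 rows past q under 0.05 became 3 at an unadjusted p under 0.05 and stayed at 0 in the other 3 alternatives. The 3 lower genes became 1 with the filter raised to 5 FPKM, where low genes are left out, 2 with a pseudocount of 5 or at the 2-fold threshold, where Serpina3a loses its call, and 4 with the filter lowered to 0.5 FPKM or left off, where Prss41 enters. The 1 higher gene became 3 with a pseudocount of 0.1 (with Spint3 and Spint5), 0 with a pseudocount of 5, 0 with that filter and 5 at the lower of the other fold thresholds tried. With no filter on low values, where genes at 0 enter, the medians of all members (0.12), of Kazal and Kunitz inhibitors (0.11), of serpins (0.12) and of the extracellular protease list (0.12) became 0. That of the extracellular list was 1.0e-04 with the filter lowered to 0.5 FPKM. With RefSeq symbols by accession, which drop Prss36 and Serpina3g, the protease median went from -0.04 to 0.069. With the highest row only, the convertase median went from 0.099 to 0.295. Median-of-ratios scaling lowered the median difference of all genes from 0.03 to 1.5e-06. It lowered genes of low FPKM by less, because the pseudocount was added after scaling. No paired analysis was possible because the values come pooled by group, and leaving out a library was not run for the same reason.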

Other observations

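Several members below 1 FPKM had values in 1 column only or mostly; they fall outside the naming rule and were picked with their values in view. Serpina1f, a serpin known from the epididymis, was at 0.0611 FPKM in the case column against 0.547 FPKM in the control column. Spink10, Spink11 and Spink13 were listed at 0 in the case column and at 0.176, 0.157 and 0.0895 FPKM in the other. Serpina3i, Prss21, Prss39, Serpinb3a, Tmprss15, Spink5 and Prss57 were also at 0 in the case column only. In the other direction, Prss34 (0.103 FPKM), Serpina6 (0.0616), Serpina3m (0.0534), Serpinb9b (0.0450), Serpinb5 (0.0438) and Serpind1 (0.0288) had a value in the case column and 0 in the control column. Serpinb1b, of the clade B cluster on chromosome 13, was at 0.473 and 0.226 FPKM in the case and control columns. None of these genes has a row with status OK.

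The surroundings of the 3 members with the smallest p-values were also read, within 100 kb of each. Neighbours outside the family at a mean of at least 1 FPKM are named here, except Tmie, which is given above. They lie outside the naming rule. Near Spink8, Camp, an antimicrobial peptide gene of neutrophils, was at 1.22 and 2.18 FPKM in the case and control columns. The closest gene, 3000002C10Rik, was at 2.15 and 2.88 FPKM and Nme6 at 9.19 and 11.4 FPKM, while Cdc25a, a cell cycle phosphatase, was at 18.5 and 19.3 FPKM. Near Tmprss13, Fxyd6, a regulator of the sodium pump, was at 140 and 125 FPKM and Il10ra, an interleukin receptor, at 8.77 and 7.88 FPKM. Fxyd2 went the other way, at 3.52 and 3.94 FPKM, lower in the case column where Tmprss13 was higher. Near Prss50, Als2cl was at 4.43 and 4.18 FPKM. The low Prss42 (0.497 and 0.991 FPKM) and Prss44 (0.220 and 0.434 FPKM) had gaps of 1.99-fold and 1.97-fold in the direction of Prss50. Prss45 was also lower in the case column, at 0.570 and 0.782 FPKM. Prss43 (0.131 and 0.0889 FPKM) and Prss46 (0.182 and 0.145 FPKM) were higher there. The difference between neighbours was not tested.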
